A study of Mus musculus with 4 samples.

Results

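The 10 amino acid transporter genes described here are those that T cells are known to use when they take up amino acids for growth. They were chosen by name, not by a threshold on measured values, as Slc7a5, Slc3a2, Slc7a6, Slc7a11, Slc1a5, Slc1a4, Slc38a1, Slc38a2, Slc7a1 and Slc6a6. All 10 were represented among the 18539 genes named on the arrays, by 22 probes in all. Expression was measured in Th2 cells, the helper T cells that secrete IL-4, IL-5 and IL-13, grown with or without SH-2251, a compound studied as an inhibitor of IL-5 production. All cells were CD4 T cells from the spleen of female C57BL/6J mice, purified on magnetic columns. Antibodies against TCR-β (immobilized) and CD28 activated them for 2 days, after which they spent 3 more days on new plates. IL-2 at 2.5 ng/ml was present in both phases, as was IL-4 at 10 ng/ml. In the following, "resting" cells were left without a further stimulus at the end of these cultures, whereas "restimulated" cells were placed on immobilized antibody against TCR-β for 4 h. The control cells were cultured without SH-2251, and the treated cells with it in both phases (1 µM and then 1 mM in the labels; the methods of the study give a lower usual dose, a naïve starting population and an added antibody against IFN-γ). The mice were young adults by the study's methods, and whether cells of several mice were pooled is not given in the sources used here.

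A T cell that meets antigen leaves quiescence, grows and divides, and for this it must import amino acids that it does not make in sufficient amounts. Leucine and other large neutral amino acids enter through a heterodimer of the heavy chain SLC3A2 (CD98) and a light chain, while glutamine enters largely through sodium-coupled carriers. Intracellular leucine and arginine are sensed by the kinase complex mTORC1, and a shortage of amino acids is sensed by the kinase GCN2, whose signal raises translation of the transcription factor ATF4. Transporter genes, aminoacyl-tRNA synthetase genes and amino acid synthesis genes such as Asns are known targets of ATF4.

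Each of the 4 conditions was measured on 1 array with a single dye (Cy3), all on 1 slide and read in 1 scan, so no difference could be set against a spread between replicates and none was tested, and precision is limited by having 4 arrays. Values are log2 signals after subtraction of the array's own 75th percentile, which lay between 499.5 and 614 intensity units. On each array 56.0% to 56.6% of probes exceeded background clearly (the scanner software's own call, named "well above background" below), and no sample probe was saturated. A "technical SD" covers error within the arrays only. Over the brightest probes of the 9 members other than Slc7a11 it was between 0.204 and 0.209 for a difference between 2 arrays, and between 0.289 and 0.292 for a difference between 2 such differences. Each array enters 1 comparison of treatments and 1 of states, and all 4 enter the difference between the responses, so the comparisons are not independent of each other. All 8 genes of T cell activation that were examined, such as Nr4a1 and Cd69, were at least 2-fold higher after restimulation in control and in SH-2251 cells, which fits the labels. They were not all alike between treatments. In restimulated cells Ifng was 3.12-fold and Il2 2.89-fold lower with SH-2251, and the other 6 were within 2-fold, where 2.78% of all genes were lower. At rest Egr2 was 2.28-fold lower and the other 6 compared were within 2-fold, where 2.90% of all genes were lower. The 8 markers of CD4 and Th2 cells were above background on all 4 arrays. With SH-2251 all 8 were lower at rest, and 6 were lower and 2 higher after restimulation. Past 2-fold were Il5, 14.5-fold lower at rest and 8.05-fold lower after restimulation, and Il13, 2.49-fold lower at rest. Of 8 B cell markers, 7 were also above background on every array, Pax5 being the exception, with a summed signal of 40.9, 35.6, 33.0 and 45.8 times the 75th percentile. Here and below, 4 values in a row are in the order resting control, resting SH-2251, restimulated control, restimulated SH-2251.

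The transporter genes were higher after restimulation, and most differed by less than 2-fold between SH-2251 and control cells. In control cells 9 of the 10 were at least 2-fold higher 4 h after restimulation than before, the exception being Slc6a6 at 1.96-fold, whereas 7.20% of all 12755 genes compared were at least 2-fold higher and 7.35% lower. In SH-2251 cells 9 of the 10 were also at least 2-fold higher, the exception being Slc38a2 at 1.52-fold, against 7.09% of 12609 genes, with 6.99% lower. No member was lower in either treatment. Slc7a11 entered these counts as a lower bound, whose direction followed from its detection on the restimulated arrays only. Leaving it out, 8 of 9 members were at least 2-fold higher in each treatment. Of all genes measured on both arrays, 6.60% were so in control and 6.71% in SH-2251 cells. A difference of 2-fold or more between SH-2251 and control cells was found in 1 member, Slc1a4, which was 2.84-fold higher in resting SH-2251 cells than in resting control cells. Slc1a4 and Slc7a5 also had a smaller restimulation response in SH-2251 cells, by more than 2-fold on a ratio of ratios. Fewer cells of a type and less RNA per cell cannot be told apart in such bulk samples.

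**Figure D1:**
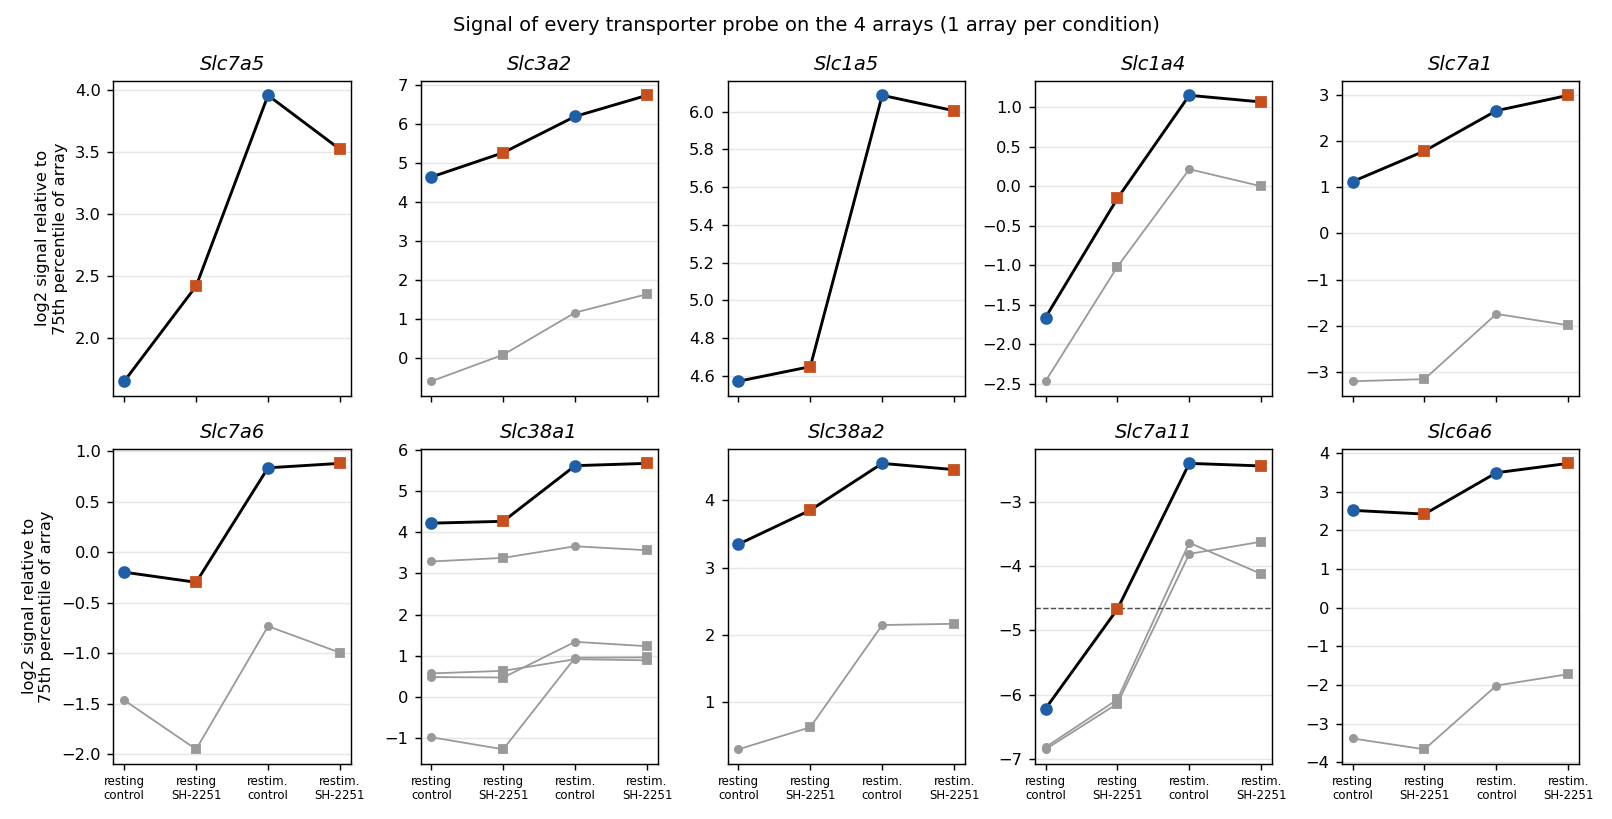
Signal of each of the 22 probes for the 10 transporter genes on the 4 arrays, as log2 after subtraction of the array's 75th percentile, with circles for control and squares for SH-2251 cells. Black lines with coloured symbols are the brightest probe of a gene and grey lines its other probes, and the dashed line for Slc7a11 marks the level under which signals were not well above background on the resting SH-2251 array. In all 19 probes that were above background on all 4 arrays both restimulated arrays lie above both resting arrays, as was so for 30.0% of the 11510 genes above background on all 4 arrays; the 3 Slc7a11 probes were above background on the restimulated arrays only.

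Slc3a2 encodes the heavy chain, which carries no amino acid itself but brings its light chains to the cell surface. Its brighter probe had a log2 signal of 4.65 in resting control, 5.27 in resting SH-2251, 6.20 in restimulated control and 6.74 in restimulated SH-2251 cells. The 4 values thus ascended in that order, with each step above the technical SD. The signal in SH-2251 cells was 1.54-fold that in control cells at rest and 1.45-fold after restimulation, and Slc3a2 was the only member whose brightest probe was at least 0.5 higher on the log2 scale with SH-2251 in both states. After restimulation it was 2.93-fold higher in control cells and 2.77-fold higher in SH-2251 cells. The second, dimmer probe gave log2 differences of 0.68 and 0.47 with SH-2251 and of 1.76 and 1.55 with restimulation.

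Slc7a5 (LAT1), the light chain that imports leucine in exchange for glutamine, had a log2 signal of 1.65 in resting control, 2.42 in resting SH-2251, 3.96 in restimulated control and 3.52 in restimulated SH-2251 cells, from a single probe. The resting arrays were lowest, as for Slc3a2, but the order of control and SH-2251 was opposite in the 2 states. With SH-2251 the signal was 1.70-fold higher in resting cells (log2 difference 0.77, technical SD 0.204) and 1.35-fold lower in restimulated cells (-0.43, technical SD 0.204). Accordingly, Slc7a5 was 4.94-fold higher after restimulation in control cells but 2.15-fold higher in SH-2251 cells.

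Slc7a6 (y+LAT2), a light chain that exchanges cationic for neutral amino acids, had log2 signals of -0.20, -0.30, 0.84 and 0.88. Control and SH-2251 differed by less than the technical SD in either state. Its restimulation response was 2.05-fold in control and 2.26-fold in SH-2251 cells. The second probe had SH-2251 differences of -0.49 in resting and -0.26 in restimulated cells, and its restimulation differences of 0.73 and 0.96 lay below 2-fold, so that the call for Slc7a6 rests on the brighter probe.

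Slc7a11 (xCT), the light chain that takes up cystine in exchange for glutamate, was the only member measured in restimulated cells alone. None of its 3 probes was well above background on either resting array, and all 3 were on both restimulated arrays. The brightest probe had log2 signals of -2.40 in restimulated control and -2.44 in restimulated SH-2251 cells, a difference of -0.040. Its resting readings of -6.22 and -4.67 were not well above background and have no order. The signal was therefore at least 5.0-fold higher after restimulation in control cells and at least 4.62-fold higher in SH-2251 cells, where each bound sets the restimulated signal against the lowest clearly detected signal on the resting array. With normexp background correction the bound for this probe was 1.06 log2 in control cells, and in SH-2251 cells it was 0.00, or 0.99 when spots of uneven background were left out, so that the 2-fold call ended there. The other 2 probes gave smaller bounds, of at least 1.88-fold and 2.12-fold in control and at least 2.04-fold and 1.44-fold in SH-2251 cells. SH-2251 and control were not compared in resting cells for this gene.

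Slc7a11 is a known ATF4 target, and its promoter is shown because the core of the C/EBP-ATF response element, TGATGNAA, occurs in it in both orientations. The stretch is from RefSeq (GRCm38.p6, chr3:50443637-50443739, minus strand), 5′ to 3′, and runs from position -126 to -24 relative to the transcription start, with both matches in capitals.
Slc7a11: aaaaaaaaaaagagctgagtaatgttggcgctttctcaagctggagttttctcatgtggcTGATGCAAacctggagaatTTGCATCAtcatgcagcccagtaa

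Slc1a4 (ASCT1), an exchanger of alanine, serine, cysteine and threonine, had the largest SH-2251 difference at rest and the largest measured restimulation response in control cells. Its brighter probe read -1.66 in resting control, -0.16 in resting SH-2251, 1.15 in restimulated control and 1.06 in restimulated SH-2251 cells. The resting SH-2251 array thus lay between the resting control array and the restimulated arrays, and the restimulated arrays differed by -0.084, less than the technical SD. With SH-2251 Slc1a4 was 2.84-fold higher in resting cells (log2 difference 1.51, technical SD 0.209), and it stood at place 77 from the top of 11867 genes measured on both resting arrays. Restimulation was accompanied by a 7.01-fold higher signal in control cells, place 71 of 11848 genes, and by a 2.33-fold higher signal in SH-2251 cells. The second probe gave the same picture, with log2 differences of 1.45 and -0.21 with SH-2251 and 2.68 and 1.02 with restimulation.

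The Slc1a4 promoter also holds the core TGATGNAA, read on the opposite strand as TTGCATCA, across the transcription start. The stretch (RefSeq, GRCm38.p6, chr11:20332694-20332777, minus strand) runs 5′ to 3′ from position -64 to 20, with the match in capitals at positions -4 to 4; positions count from 1 at the start site, with no position 0.
Slc1a4: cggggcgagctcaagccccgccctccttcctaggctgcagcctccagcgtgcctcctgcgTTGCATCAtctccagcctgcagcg

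Slc1a5 (ASCT2), an exchanger of glutamine and small neutral amino acids and a close relative of Slc1a4, did not share these differences. Its single probe read 4.57, 4.65, 6.09 and 6.01. SH-2251 and control differed by 0.077 at rest and by -0.082 after restimulation, both below the technical SD. Slc1a5 was 2.86-fold higher after restimulation in control cells and 2.56-fold higher in SH-2251 cells.

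Slc38a1 and Slc38a2 encode sodium-coupled carriers of glutamine, alanine and other small neutral amino acids. The brightest of 5 Slc38a1 probes read 4.22, 4.27, 5.62 and 5.68. As with Slc1a5, SH-2251 and control could not be told apart within the technical SD in either state, and restimulation responses were 2.64-fold and 2.65-fold. The other 4 probes were all higher after restimulation but by very different amounts, from 1.27-fold to 3.82-fold in control cells and from 1.14-fold to 4.70-fold in SH-2251 cells, so the size of the Slc38a1 response depends on the probe. Where each probe lies on the transcript was not analysed here.

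Slc38a2 (SNAT2), which is known to be induced when amino acids run short, read 3.35, 3.85, 4.55 and 4.46. It was 1.42-fold higher with SH-2251 in resting cells (log2 difference 0.51), and the restimulated arrays differed by -0.092, below the technical SD. The restimulation response was 2.30-fold in control and 1.52-fold in SH-2251 cells, the smallest of the 10 in treated cells. The second probe, with responses of 1.85 and 1.54 on the log2 scale, was more than 2-fold higher in both, so that the exception of Slc38a2 in SH-2251 cells holds for the brighter probe.

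Slc7a1 (CAT1), the main importer of arginine and lysine, read 1.13 in resting control, 1.79 in resting SH-2251, 2.67 in restimulated control and 3.00 in restimulated SH-2251 cells. These values ascended in the same order as those of Slc3a2. With SH-2251 the signal was 1.58-fold higher at rest (log2 difference 0.66) and 1.26-fold higher after restimulation (0.33), and restimulation responses were 2.91-fold and 2.31-fold. A second probe, which was dimmer but above background on all 4 arrays, gave SH-2251 differences of 0.046 and -0.25, so the higher signal with SH-2251 rests on 1 of 2 probes, whereas its restimulation differences of 1.46 and 1.17 were close to those of the brighter probe.

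The Slc7a1 promoter is shown because it was the only member promoter with a match to the AP-1 motif TGANTCA, the sequence bound by the Fos and Jun factors that antigen receptor signals induce. The stretch (RefSeq, GRCm38.p6, chr5:148400005-148400087, minus strand) runs 5′ to 3′ from position -183 to -101, with the match in capitals at -123 to -117.
Slc7a1: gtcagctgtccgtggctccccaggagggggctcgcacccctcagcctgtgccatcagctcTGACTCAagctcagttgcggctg

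Slc6a6, the sodium- and chloride-coupled carrier of taurine, which is not incorporated into protein, read 2.52, 2.42, 3.49 and 3.73. The resting arrays differed by -0.097, below the technical SD, and the restimulated SH-2251 array was 0.24 above its control. Slc6a6 was the only member called in SH-2251 cells and not in control cells after restimulation, at 2.48-fold and 1.96-fold, 2 values on either side of the 2-fold line. A dimmer second probe was more than 2-fold higher in both, with log2 differences of 1.37 and 1.94.

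Which transporter genes differed between SH-2251 and control cells at rest, the state in which cells had been in culture with the compound but without a fresh antigen receptor signal, was asked first. Of the 9 members that could be compared, 1 was at least 2-fold higher with SH-2251 and 0 were lower, against 2.22% and 2.90% of 12680 genes. By brightest probes the median log2 difference was 0.51 for these 9 members and -0.055 for all genes. With the dimmer probe of a gene it was 0.077 against -0.062, and with the mean of all probes 0.36 against -0.049. With normexp it was 0.25 against -0.010, so the size of this median depends on the probe and the background correction. By their brightest probes the members fell apart by size. Slc1a4, Slc7a5, Slc7a1, Slc3a2 and Slc38a2 had log2 differences between 0.51 and 1.51, at places 77, 373, 479, 542 and 763 of 11867 genes, whereas Slc1a5, Slc38a1, Slc6a6 and Slc7a6 lay between -0.10 and 0.077. The second probes of Slc1a4 (1.45) and Slc3a2 (0.68) lay in the range of the first group, but those of Slc7a1 (0.046) and Slc38a2 (0.33) did not. Second probes of Slc7a6 (-0.49) and Slc6a6 (-0.28) and the dimmest of Slc38a1 (-0.29) lay below the range of the second group. Over the 19 probes that could be compared, 13 were above 0 and 6 below, from -0.49 to 1.51, and the 2 above 2-fold were both of Slc1a4.

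In restimulated cells none of the 10 members differed 2-fold between SH-2251 and control, where 2.65% of 12619 genes were at least 2-fold higher and 2.78% lower; no test was possible, so that the count is of folds. Differences ranged from -0.43 (Slc7a5) to 0.54 (Slc3a2) with a median of 0.0022, against -0.062 for all genes, and 5 members were above 0 and 5 below. All 22 probes could be compared, with 10 above 0 and 12 below. Slc7a5 and Slc3a2, which encode the 2 chains of one transporter, were thus at opposite ends of the list in restimulated cells and on the same side in resting cells.

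**Figure D2:**
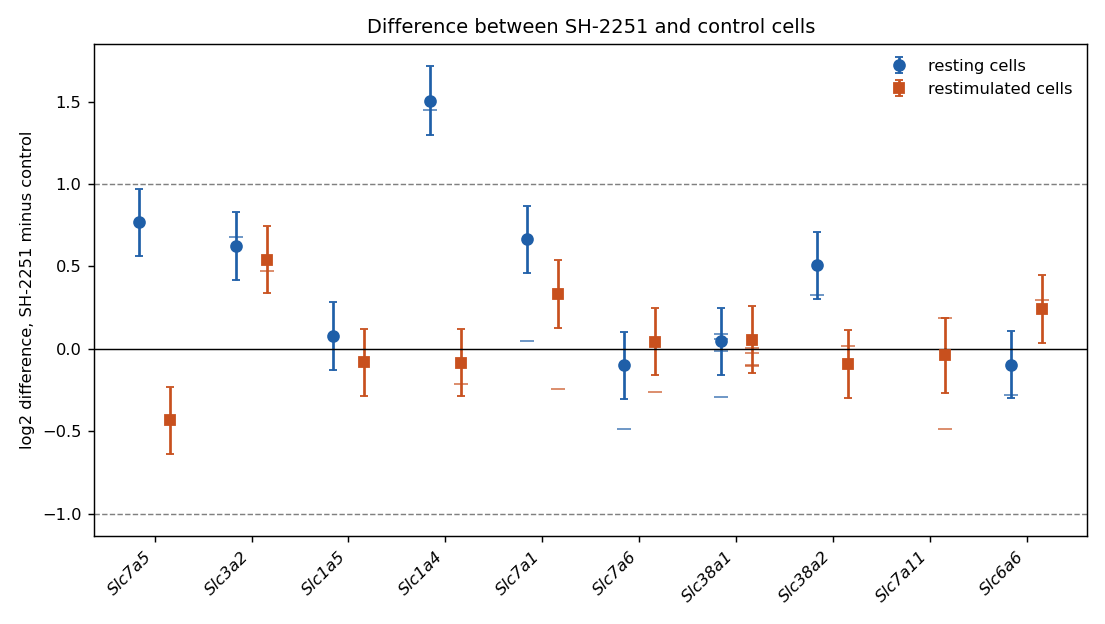
Log2 difference between SH-2251 and control cells for each transporter gene in resting (circles) and restimulated (squares) cells, from the brightest probe. Bars are the technical SD, which covers error within the arrays only, dashes are other probes and dashed lines mark 2-fold. Slc1a4 in resting cells, at 1.51, is the only point beyond 2-fold, and Slc7a11 has no resting point.

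The response to 4 h of antigen receptor restimulation was compared next, within each treatment. In control cells the median log2 difference, with Slc7a11 at its bound, was 1.53 over the 10 members and -0.065 over all genes, with members between 0.97 (Slc6a6) and 2.81 (Slc1a4). In SH-2251 cells the median was 1.27 against -0.051, with members between 0.60 (Slc38a2) and 2.21 (the Slc7a11 bound). At least 2-fold in both treatments were 8 of the 10, against 5.32% of 12210 genes that could be compared in both. No probe of any member was lower after restimulation, with 22 of 22 above 0 in either treatment and 16 of 22 at least 2-fold higher in each, the 3 Slc7a11 probes being bounds whose direction followed from their detection on the restimulated arrays only. Without Slc7a11, 8 of 9 members were at least 2-fold higher in either treatment. For the 9 members above background throughout, both restimulated arrays exceeded both resting arrays in 9 of 9, against 30.0% of genes.

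**Figure D3:**
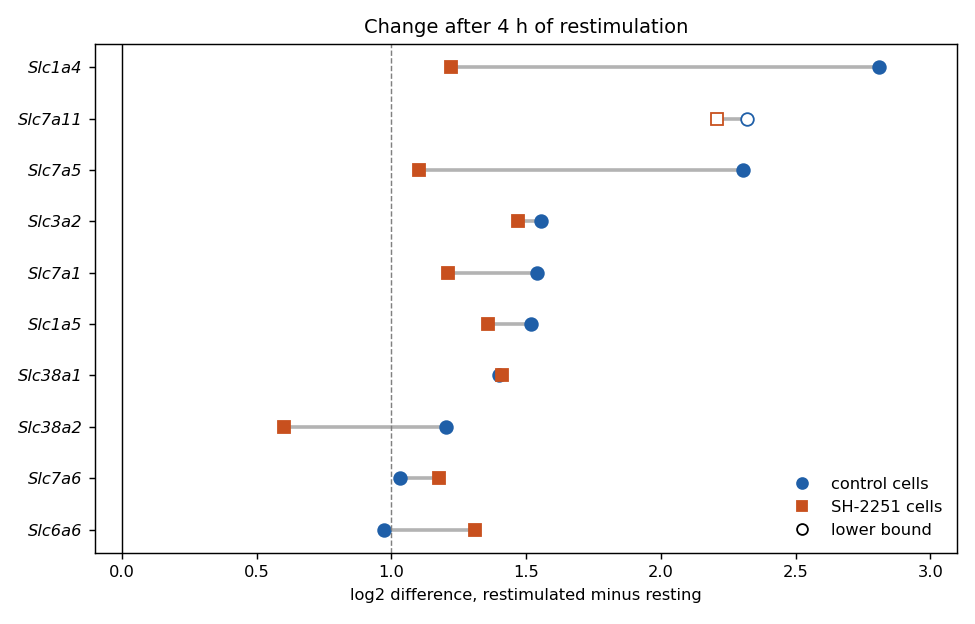
Log2 difference between restimulated and resting cells for each transporter gene in control (circles) and SH-2251 (squares) cells, with open symbols for lower bounds and a dashed line at 2-fold. Genes are ordered by the control value; the widest gaps between treatments are those of Slc1a4 (2.81 and 1.22) and Slc7a5 (2.30 and 1.10).

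Whether the response to restimulation was of another size in SH-2251 cells was read from the difference between the 2 responses. Of 9 members measured on all 4 arrays, 2 had a response that was smaller in SH-2251 cells by 2-fold or more, and 0 had a larger one, against 0.478% and 0.738% of 11510 genes. The differences were -1.59 for Slc1a4 and -1.20 for Slc7a5 on the log2 scale, with technical SDs of 0.292 and 0.289, and they stood at places 13 and 27 from the lowest. Next came Slc38a2 at -0.60 and Slc7a1 at -0.33, and the other 5 members lay between -0.16 and 0.34. For Slc1a4 nearly all of this difference lay on the resting arrays, where SH-2251 was higher, and the restimulated arrays differed by -0.084. For Slc7a5 it was divided between a higher resting and a lower restimulated signal.

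Promoter sequence from 250 bases before to 50 bases after the transcription start was found for 6 of the 10 members in RefSeq (GRCm38.p6), with 2 start sites each for Slc7a1 and Slc7a6, and for Slc3a2, Slc1a4, Slc38a2 and Slc7a11 with 1. Slc7a5, Slc1a5, Slc38a1 and Slc6a6 had no entry. Both strands were searched. TGATGNAA occurred in 2 of the 6 genes, Slc1a4 and Slc7a11, as printed above, and in 3.97% of all 32851 promoters of that length, or 4.51% of the 27025 genes they belong to. Of the aminoacyl-tRNA synthetase genes with a promoter entry, 5 of 13 held it (Aars, Gars, Iars, Tars and Yars). So did Asns and Got1 among 24 amino acid enzyme genes, 1 of 33 other transporter genes and 1 of 27 genes of amino acid sensing. The E-box CACGTG, a sequence bound by MYC, occurred in 0 of the 6 members and in 7.15% of all promoters (8.09% of genes). TGANTCA occurred in 1 of the 6, Slc7a1, at 1 of its 2 start sites, and in 7.81% of all promoters (8.97% of genes). It reads the same on both strands apart from its middle base, so a site counts as 1 match. These matches describe the letters in these windows and do not show that a factor binds there.

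Genes with a profile most like that of Slc7a5 over the 4 arrays were sought among the other 11509 genes above background on all arrays, by the Euclidean distance between their 4 log2 values, each gene centred on its own mean. The nearest were Soat2, a cholesterol esterification enzyme, at a distance of 0.28, Asns, which makes asparagine, at 0.29, and Bhlha15, a transcription factor of secretory cells, at 0.29. Fndc3b at 0.34 and Bcat1, which transfers the amino group of leucine, isoleucine and valine, at 0.38 followed. Asns had log2 signals of 5.18, 6.02, 7.17 and 6.94, which stand in the same order as those of Slc7a5. The nearest members were Slc1a5 at place 47 and Slc7a1 at place 58, and the partner Slc3a2 stood at place 108. Among the members themselves the closest profiles were those of Slc1a5 and Slc38a1 (0.11), Slc7a6 and Slc6a6 (0.14) and Slc3a2 and Slc7a1 (0.20), and the most distant were Slc1a4 and Slc7a6 (1.46). These distances are descriptions over 4 arrays that all genes share.

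Other amino acid transporter genes were examined from a list. Of 46 listed, 43 were on the arrays and 25 could be compared after restimulation of control cells, of which 3 were at least 2-fold higher and 5 lower, with a median of -0.16, against 7.20% and 7.35% of all genes. Higher were Slc6a9 (6.85-fold), the glycine carrier, Slc7a3 (5.06-fold), a second carrier of arginine and lysine, and Slc1a1 (at least 3.49-fold), a carrier of glutamate. Lower were Slc6a13, Slc7a4, Slc36a1, Slc43a2 and Ctns, the lysosomal exporter of cystine, at 2.11-fold to at least 3.24-fold. The second Slc6a13 probe was also past 2-fold, at -1.02 log2, and the second Slc36a1 probe was above background on 0 arrays. In SH-2251 cells 3 of 26 were at least 2-fold higher (Slc6a9, Slc7a3 and, as a bound, Slc7a14) and 5 lower (Slc6a13, Slc7a4, Slc7a8, Slc43a2 and Ctns), against 7.09% and 6.99% of all genes. There the second Slc6a13 probe stood at -0.85 log2, short of 2-fold.

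With SH-2251 in resting cells, 2 of 24 other transporter genes were at least 2-fold higher and 2 lower, against 2.22% and 2.90% of all genes. Slc6a9 read 1.29, 3.22, 4.07 and 4.25 on the 4 arrays, so that it was 3.82-fold higher with SH-2251 at rest and 1.13-fold higher after restimulation. This is the form that Slc1a4 had. Of 18 other transporter genes measured on all arrays, Slc6a9 was the only 1 whose response was more than 2-fold smaller in SH-2251 cells. Its difference was -1.75 log2, and 0.478% of all genes had a response smaller by 2-fold or more. Slc7a3 read 0.71, 1.93, 3.05 and 3.30 and was 2.33-fold higher at rest. Slc7a8 (LAT2), a further light chain of SLC3A2 that carries large and small neutral amino acids, went the other way, with readings of 0.32, -1.95, -0.29 and -3.01. It was lower with SH-2251 in both states, 4.81-fold at rest and 6.58-fold after restimulation, while Slc7a5, the related light chain, differed by less than 2-fold. Slc6a19, a carrier of neutral amino acids best known from intestine and kidney, was likewise lower in both states, 5.67-fold and 6.96-fold, from readings of -1.06, -3.56, -0.56 and -3.36. In restimulated cells, 1 of 23 other transporter genes was at least 2-fold higher with SH-2251 (Slc7a14, 2.25-fold) and 4 were lower, namely Slc6a19, Slc7a8, Slc1a1 (at least 3.44-fold) and Slc16a10 (2.10-fold), a carrier of aromatic amino acids. Slc7a14 was dim, at -4.47 in restimulated control cells, where the lowest signal well above background was -4.65. Its difference had a technical SD of 0.371, and its second probe was above background on 0 arrays.

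**Figure D4:**
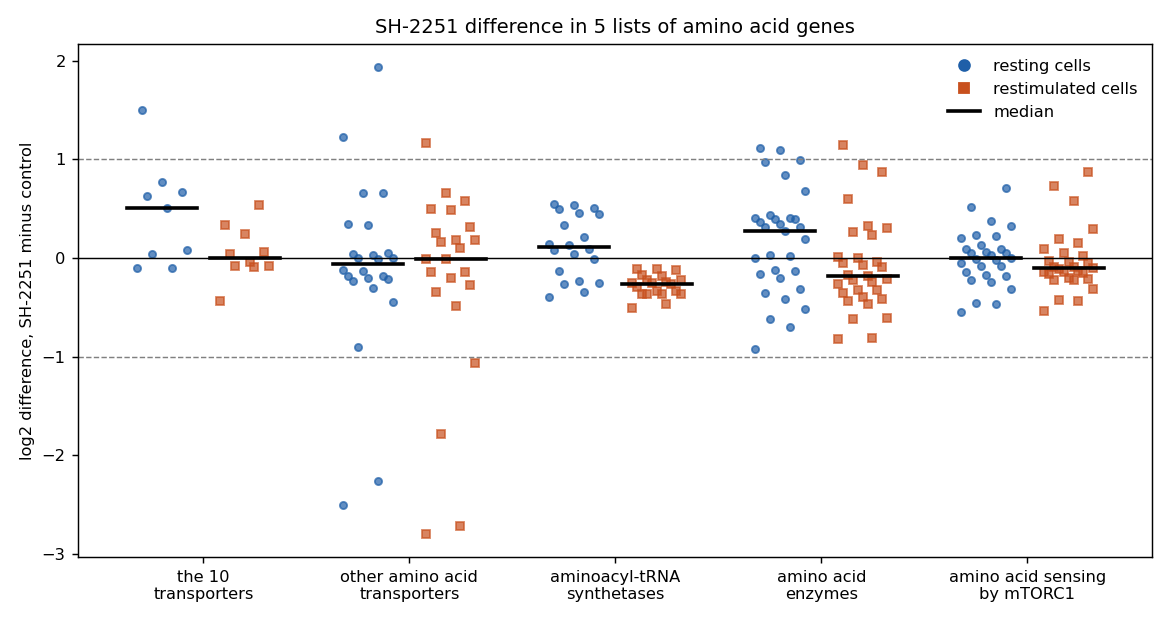
Log2 difference between SH-2251 and control cells for single genes of 5 lists, in resting (circles) and restimulated (squares) cells, with black bars at the medians and dashed lines at 2-fold. The medians of the transporters, from the brightest probes, are 0.51 over 9 genes at rest and 0.0022 over 10 after restimulation. With the dimmer probe of a gene they are 0.077 and -0.15. By their brightest probes all 20 synthetases lie below 0 in restimulated cells, between -0.51 and -0.11, where the median of all genes is -0.062. The sensing list also holds Eif2ak4, which encodes GCN2.

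The genes that use or sense the imported amino acids were examined in the same way. Of 20 aminoacyl-tRNA synthetase genes, which load amino acids onto tRNA, 10 were at least 2-fold higher after restimulation in control cells, against 7.20% of all genes, with a median of 0.99. They were Gars (2.83-fold), Nars (2.85-fold), Iars (2.55-fold), Aars, Cars, Eprs, Farsb, Lars (another probe at 0.99 log2, short of 2-fold), Tars and Yars. In SH-2251 cells 1 of 20 was, Rars at 2.10-fold, against 7.09% of all genes, with a median of 0.56. Their response was smaller in SH-2251 cells for 17 of 20 genes, with a median difference of -0.45 against 0.013 for all genes, and none of these single differences reached 2-fold. SH-2251 differences stayed within 2-fold in all 20 genes in either state. Their median was 0.11 at rest and -0.26 after restimulation, against -0.055 and -0.062 for all genes. By the brightest probes 20 of 20 were below 0 in restimulated cells, whereas another Eprs probe, above background on all 4 arrays, stood at 0.063.

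Of 33 listed genes of amino acid metabolism, 31 could be compared after restimulation of control cells, of which 12 were at least 2-fold higher and 1 lower, against 7.20% and 7.35% of all genes. Cth, which makes cysteine, was 15.1-fold higher, Bcat1 5.39-fold and Asns 3.97-fold, and Bckdha, of branched-chain amino acid breakdown, was 2.38-fold lower. The others that were higher were Got1, Phgdh, Psat1, Psph, Shmt1, Shmt2, Odc1, Aldh18a1 and Ppat. A second Ppat probe stood at 0.88 log2, short of 2-fold. In SH-2251 cells 5 of 30 were at least 2-fold higher (Cth, Odc1, Bcat1, Got1 and Shmt1) and 1 lower, against 7.09% and 6.99% of all genes. Asns and Gpt2, an alanine aminotransferase, had smaller responses in SH-2251 cells, with differences of -1.08 and -1.10 log2. They were the 2 genes of 28 past 2-fold, against 0.478% of all genes with a response smaller by 2-fold or more. At rest 2 of 31 were at least 2-fold higher with SH-2251, against 2.22% of all genes. They were Gpt2 (2.14-fold) and Gclm (2.17-fold), a subunit of the enzyme that starts glutathione synthesis. Gclm was also higher with SH-2251 in restimulated cells (2.22-fold), as 1 of 31, against 2.65% of all genes.

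A list of 30 genes of amino acid sensing held genes of mTORC1 and its inputs, and Eif2ak4, which encodes GCN2. Of these, 29 could be compared and 0 differed 2-fold with SH-2251 in either state, where 2.22% to 2.90% of all genes did in each direction. After restimulation 3 were at least 2-fold higher and 2 lower in either treatment, against 6.99% to 7.35% of all genes in each direction. Rheb, the GTPase that activates mTORC1, was 2.88-fold higher in control and 2.12-fold higher in SH-2251 cells, and Castor1, an arginine sensor, was 2.38-fold and 2.35-fold lower. The others past 2-fold were Fnip2 (higher in both treatments), Wdr59 (higher in SH-2251 cells), Rragd (lower in control cells) and Rragb (lower in SH-2251 cells). A second Rragd probe stood at -0.84 log2 in control cells, short of 2-fold. Sesn2, a leucine sensor and ATF4 target, read 2.69, 3.41, 4.06 and 4.03, so it was 2.57-fold higher after restimulation in control cells and 1.54-fold in SH-2251 cells. Of 3 transcription factor genes that act on transporter genes, Atf4 read 3.09, 3.33, 4.39 and 4.20 and was 2.46-fold higher after restimulation in control and 1.82-fold in SH-2251 cells. Myc and Nfe2l2 stayed within 2-fold in every comparison.

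Markers of other cells differed with SH-2251 as well. Of the 7 B cell markers compared, 4 were above 0 and 3 below with SH-2251 at rest, and 5 above and 2 below after restimulation. Their list's summed signal was lower with SH-2251 at rest (35.6 against 40.9) and higher after restimulation (45.8 against 33.0). The 2 past 2-fold in restimulated cells were Ms4a1 and Cd74. They were higher by 0.74 and 0.39 log2 at rest and by 1.21 and 1.19 after restimulation. Cd8a was higher by 1.45 and 0.97, with 2 of 4 NK and CD8 T cell markers above background and summed signals of 0.299 to 0.535 times the 75th percentile. Hba-a1, of red cells, was higher by 1.15 and 1.28, and the sums of the 3 red cell markers were 0.365, 0.712, 0.232 and 0.639. Alas2, also of red cells, was above background on the restimulated SH-2251 array only, with a bound of at least 1.57 against restimulated control cells. Of 7 myeloid markers, 3 or 4 were above background, with sums between 2.49 and 3.06 and Lyz2, Itgam and Elane not well above background on any array. The part of these cells in the transporter differences was not tested.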

How the data were processed

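For each array the authors deposited the scanner output of Feature Extraction (10.7.3.1 in the file headers), with intensities already background-corrected by that software, and for the series a table of log2 values that the authors obtained with the Subio Platform. Set against the scanner intensities, the deposited log2 values proved to be those intensities on the log2 scale, shifted so that the 75th percentile of an array is 0.

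The same scale was computed here from the intensities. Control spots and spots called outliers (77 to 106 per array) were left out. Probes were named through their RefSeq accession with a table for GRCm38.p6; of 41174 probes 27198 (66.1%) matched. The arrays were designed on another build, so that no array coordinates are given. The brightest probe represented a gene. Genes not well above background on either array of a comparison were left out of it, and where 1 array of the pair was dim the difference is a bound, set by the dimmest signal well above background. The technical SD comes from the error that the software states for each spot. For probes spotted repeatedly, the median SD over spots lay between 0.0460 and 0.0548 log2.

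With 1 array per condition, the comparisons were SH-2251 minus control in either state, restimulated minus resting in either treatment, and the difference of the latter. A fold of at least 2 was counted. All 10 transporters and all their probes were named; of the transporter, synthetase, enzyme and sensing lists, genes past 2-fold in any of the 4 pairwise comparisons, the genes used as checks, and the 5 genes nearest to Slc7a5. Myc and Nfe2l2 are named outside that rule, after their values were seen. The members, lists and motifs were chosen with earlier results of these data known. Alternatives were other scalings, the deposited log2 values, normexp background correction (offset 50; on median spot signals), other filters, other probes of a gene and folds of 1.5 and 3. The calculation was tested on simulated data. Normexp and quantile normalization used limma 3.58.1 in R 4.3.3; all else used pandas 2.3.3, numpy 2.4.6 and matplotlib 3.10.9 in Python 3.11.15.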

Additional observations from a re-analysis of the deposited data

Results flagged for a closer look

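The SH-2251 difference of Slc7a5 had opposite signs in the 2 states. It was 0.77 log2 in resting cells and -0.43 in restimulated cells, so that the second less the first was -1.20. With 1 array per condition this difference was not tested.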

How the results depend on the processing

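No paired analysis was possible because each condition had 1 array. Under the scalings, filters, background corrections and probe choices run, no member value past 2-fold changed direction. At rest, the count of 1 member higher with SH-2251 became 2 with no filter and no bound (Slc7a11 was added), 4 at 1.5-fold and 0 at 3-fold. The restimulated count of 0 did not change. At 3-fold, restimulation counts went from 9 to 3 in control cells and from 9 to 1 in SH-2251 cells, and at 1.5-fold both were 10. They were 8 and 7 with normexp, 8 and 8 with normexp without uneven spots or where both arrays had to be above background, 8 and 9 with the mean of all probes, and 9 and 8 with the dimmer probe. The count of 2 members with a smaller response in SH-2251 cells became 1 at 3-fold and 1 with normexp. It became 3 at 1.5-fold and 3 with no filter and no bound. In that normexp fit the resting SH-2251 array had 4 spots below local background and a fitted background mean of -151.7, against 7.36 to 8.23 on the others. When spots of uneven background (12 on that array) were left out, the mean was 7.42. With all spots, normexp put 5.46% of genes at least 2-fold higher and 1.28% lower with SH-2251 at rest, 5.80% and 12% after restimulation of SH-2251 cells, and 0.400% and 5.14% in the difference of responses. Its Slc7a11 bound in SH-2251 cells was 0.00 log2 with all spots and 0.99 without the uneven ones, and in control cells 1.06 in either. The cause of these changes was not tested. Of 48 member values, median scaling moved 0, quantile normalization 1, normexp 19 and the dimmer probe of a gene 19 by more than the technical SD. Dim probes limit Slc7a11, which has bounds only for restimulation.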
